A study of Drosophila melanogaster with 66 samples.

Results

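The 73 genes described here are the Drosophila melanogaster genes that are named mRpL or mRpS with a number, the nuclear genes for proteins of the mitochondrial ribosome. They were found by symbol alone among 17872 genes of a RefSeq table of Release 6 (dm6), with no measured value used. By symbol, 47 belong to the large subunit (mRpL) and 26 to the small subunit (mRpS). On the X chromosome lie 11 of them, and the other 62 lie on the autosomes, with 12 on 2L, 12 on 2R, 17 on 3L and 21 on 3R.

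The mitochondrial ribosome translates the few proteins that the mitochondrial genome encodes, which are core subunits of the respiratory chain and of ATP synthase. Its RNAs come from the mitochondrial genome, while its proteins are all encoded in the nucleus, made in the cytoplasm and imported. In Drosophila males the X is dosage compensated by the male-specific lethal (MSL) complex, which acetylates histone H4 at lysine 16 (H4K16ac). The zinc finger protein CLAMP helps to bring this complex to the X. CLAMP binds GA-rich DNA on all chromosomes in both sexes, and H4K16ac is also laid down at many active genes outside the MSL complex.

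Chromatin immunoprecipitation and sequencing (ChIP-seq) mapped CLAMP, H4K16ac and the MSL subunit MSL3 in embryos of known sex at nuclear cycles 11, 12, 13 and 14 and at 2-4 h. Females came from fathers that were +/Dp(2:y) with CB25-4, y+ and Rsp[s]B[s] and carried SPSD over SD72, and males from fathers with 19-3, yw and Rsp[s]-B[s] over Y that also carried SPSD over SD72. These are meiotic drive crosses, in which sperm with a responder (Rsp[s]) chromosome are lost, so that each cross gives embryos of 1 sex. All mothers were yw; attP2{PCNA-EGFP}, so embryos of both sexes share that background, and 200 embryos raised at 24 °C and sorted by hand under fluorescence were pooled per sample at cycles 11 to 14. What a value owes to the cross cannot be told apart from what it owes to sex. In pooled embryos, a region present in fewer nuclei and a weaker signal in each nucleus cannot be told apart either.

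A list of enriched regions was used for 25 of the 66 samples: 10 of CLAMP, 10 of H4K16ac and 5 of MSL3, which was mapped in males alone. Each sex, stage and target has 1 list, so no value below has a replicate error and no difference between lists was tested. The CLAMP lists held 133 to 10466 regions, the H4K16ac lists 1201 to 8087 and the MSL3 lists 33 to 15149. The read depth behind them is unknown. In the male cycle 14 CLAMP list, 77.8% of the summits (points of highest signal) near protein-coding genes lay within the gene body, against 43.9% to 67.6% in the other 9, so this list stands apart. A gene is called occupied when at least 1 bp of a region lies over its body or within 1 kb on either side. Its fold enrichment is the highest value over the local background that the authors' peak caller gave to such a region, and it has no scaling between lists. Body cover is the percent of the gene body that lies under regions. As background serve the 13842 protein-coding genes of the X and of 2L, 2R, 3L and 3R, with 2197 of them X-linked.

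Genes of the mitochondrial ribosome are short and closely packed, which bears on every count. Their median body length was 909 bp against 2151 bp for all protein-coding genes. Another protein-coding gene lay within 1 kb of 72 of the 73 (98.6%), against 87.8% of the background, and in 43 members a neighbour overlapped the body. The longest members were mRpS9 (13391 bp) and mRpS5 (6299 bp). Since a short gene offers fewer bases to be hit, each share is also set beside the 3843 protein-coding genes between 593.2 and 1464.0 bp, the range from the 10th to the 90th percentile of the members. These are called genes of like length below. No region was shared by 2 members, so each gene is a separate locus.

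CLAMP lay at most genes of the mitochondrial ribosome at 2-4 h, and at no more than 26 of the 73 in any list before. In the female 2-4 h list 67 of the 73 were occupied (91.8%), against 60.7% of protein-coding genes and 43.3% of those of like length. The male 2-4 h list held 63 (86.3%), against 59.5% and 42.2%. All 63 were among the 67 of the female list, and the remaining 4 were mRpL30, mRpL20, mRpL19 and mRpL9, with fold enrichment of 4.67, 2.18, 2.1 and 2.22 in females. In neither list were the members' regions strong: their median fold enrichment was 4.08 in females and 4.6 in males, below the medians of 5.11 and 5.8 over all occupied protein-coding genes. Thus the members stood above the background in how often CLAMP was present and below all protein-coding genes in fold enrichment. That value is the highest over a gene's regions, and longer genes can hold more of them. The female list had 88 gene and region pairs at 67 members, and 14276 at 8404 protein-coding genes. Fold enrichment at genes of like length is not given here.

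**Figure D1:**
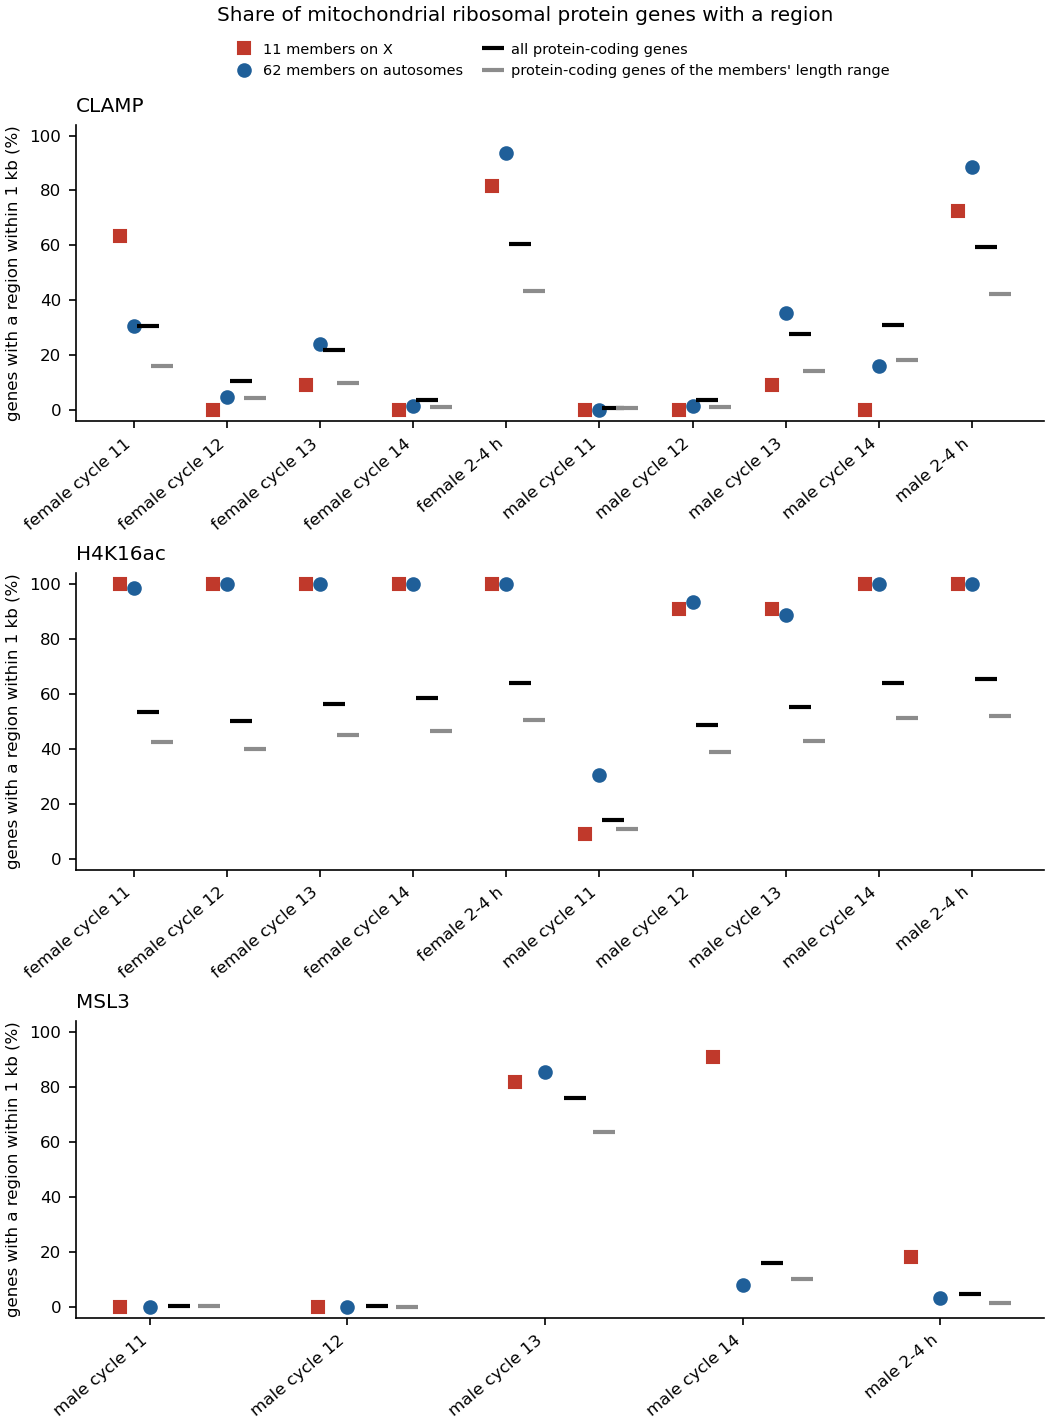
Percent of genes with a region over the body or within 1 kb (y axis) in each of the 25 lists (x axis), for 11 X-linked members (squares), 62 autosomal members (circles), all protein-coding genes (black bars) and genes of like length (grey bars). CLAMP stands above both bars at 2-4 h, H4K16ac lies at 65 or more of the 73 members in every list but male cycle 11, and MSL3 at cycle 14 separates X-linked from autosomal members.

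At the nuclear cycles fewer members were occupied in each list. In females 26 (35.6%), 3 (4.11%), 16 (21.9%) and 1 (1.37%) were occupied from cycle 11 to cycle 14. The backgrounds were 30.9%, 10.7%, 22% and 3.92%, and those of like length 16.2%, 4.37%, 10% and 1.3%. Thus in females the members were close to or below the background of all genes at each cycle, and above genes of like length at cycles 11 and 13.

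In males 0, 1 (1.37%), 23 (31.5%) and 10 (13.7%) were occupied over the same stages. The backgrounds were 1.05%, 3.97%, 27.8% and 31.2%, and those of like length 0.729%, 1.14%, 14.4% and 18.3%. At male cycle 14, the list that stands apart, members were occupied less often than either background. With the gene body alone and no flank, the count fell to 11 in the female cycle 11 list, against 22.7% of protein-coding genes. It fell to 8 and 12 in the female and male cycle 13 lists (16.1% and 20.2%) and to 2 in the male cycle 14 list (22.9%). Many of these regions thus lay beside the member and not over it. In these 4 lists, in the same order, the summit was in the body in 6.67%, 11.1%, 6.9% and 9.09% of the members' gene and region pairs. Genes of like length had 11.6%, 12.2%, 13.8% and 37.5%, and all protein-coding genes 50.1%, 54.7%, 52.1% and 77.8%. Except at male cycle 14, genes of like length were thus far nearer to the members than to all genes.

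Members occupied early were occupied again later. All 26 of female cycle 11, all 16 of female cycle 13 and all 23 of male cycle 13 were also occupied in both 2-4 h lists. Of all protein-coding genes in the female cycle 11 list, 99.5% were in the female and 99.3% in the male 2-4 h list, so the members did as other genes did. Of the 10 members in the male cycle 14 list, 9 were occupied in both 2-4 h lists, against 75.7% (female) and 74.8% (male) of all protein-coding genes of that list. The remaining one was mRpS33, whose regions there had fold enrichment of 3.75 and 3.46 and lay over its neighbours CG14881 and ema. It had CLAMP in no other list.

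The female and male cycle 13 lists shared 15 members, with 8 in the male list alone and 1 in the female list alone. As shares of the 73 these were 20.5%, 11% and 1.37%, near the 20.4%, 7.4% and 1.59% of all protein-coding genes. Cycle 11 was different, with 26 members in the female list and 0 in the male list, whose 133 regions reached 1.05% of protein-coding genes. At cycle 14 the direction turned, with 9 members in the male list alone and 0 in the female list alone. Over all protein-coding genes 30.2% were in the female list alone at cycle 11 and 27.7% in the male list alone at cycle 14. Sex cannot be told apart here from the number of regions called.

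Among single genes mRpL53, a large subunit protein with no bacterial counterpart, had the most CLAMP. It lies on 2R from 13954195 to 13955664 and was occupied in 9 of the 10 lists. Fold enrichment in females was 13.7, 17.5, 20.5, 6.71 and 14.1 in order of stage. In males it was 9.63, 17.6, 14.6 and 19.2 from cycle 12 to 2-4 h, with no region at cycle 11. It had the highest value of the members in each of those 9 lists. The region also lay over AGO1, which encodes an Argonaute protein of the microRNA pathway, and over CG33155. Its summit stayed between positions 13954114 and 13954151, a spread of 37 bp, and 44 to 81 bp outside the body of mRpL53. The summit was inside a neighbouring gene, so the region cannot be assigned to mRpL53 by position alone.

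Another member, mRpL17 (3L, 264779 to 265932), was occupied in 7 lists. Fold enrichment was 5.65, 2.88, 5.28 and 6.46 in females at cycles 11, 12, 13 and 2-4 h, and 4.96, 3.27 and 7.39 in males at cycles 13, 14 and 2-4 h. The summit of that region lay 812 to 870 bp from the gene and inside Tudor-SN, a nuclease gene of RNA silencing, so mRpL17 counts as occupied through its neighbour.

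The 6 lists with mRpL13 (2L, 18858028 to 18859248) show a closer region. Its fold enrichment was 5.47, 9.86, 7.34 and 10.8 in females at cycles 11, 12, 13 and 2-4 h, and 7.92 and 12.7 in males at cycle 13 and 2-4 h. The summit moved by 31 bp over the 6 lists and lay 75 to 106 bp from the nearer end of the body, inside no gene. By fold enrichment mRpL13 was the next strongest member after mRpL53 at 2-4 h in both sexes.

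A further 3 members, mRpL1, mRpS6 and mRpS16, were each occupied in 6 lists. mRpL1, a protein of the stalk at the side of the large subunit, went from 3.61 at female cycle 11 to 6.87 at female 2-4 h and 6.89 at male 2-4 h. mRpS6 went from 3.53 to 6.24 and 6.84, and mRpS16 from 4.07 to 5.85 and 6.82. In mRpS16 the strongest summit lay 68 to 78 bp from the body in 5 of the lists and 1156 bp away, inside combgap (cg), in the male cycle 14 list. The spread of its summits was therefore 1088 bp.

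A group of 9 members was occupied in 5 lists, and each of these had the same lists: female and male cycle 13, female and male 2-4 h, and female cycle 11. mRpL47 (4.75, 4.46 and 6.48 in females, 4.27 and 7.93 in males) and mRpL11 (3.71, 3.36 and 7.23, and 2.08 and 9.06) led this group by fold enrichment in the male 2-4 h list. mRpL14 was its only X-linked gene, with 3.93, 5.8 and 3.49 in females and 3.97 and 4.31 in males. Its strongest region lay inside Raf, the gene of a kinase of growth factor signalling, 364 to 541 bp from mRpL14.

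Another 2 members, mRpS17 and mRpS11, joined at female cycle 11, male cycle 13 and 2-4 h and lacked CLAMP in the female cycle 13 list. mRpS17 had 2.52 and 6.99 in females and 3.77 and 8.25 in males, and mRpS11 had 1.95 and 4.95, and 3.04 and 6.87.

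At the other end, 32 members had CLAMP at 2-4 h and at no nuclear cycle. A further 5 members had it in no list: mRpL49 and mRpL38 on X, and mRpL28, mRpL54 and mRpL36 on the autosomes. In all, 68 of the 73 had CLAMP in at least 1 list, 28 of them in exactly 2 lists and 16 in exactly 3. The shares of all protein-coding genes with CLAMP at 2-4 h alone, or in any list, are not given here. Of all protein-coding genes in the female 2-4 h list, 50.7% were also in the female cycle 11 list, against 38.8% of the members.

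**Figure D2:**
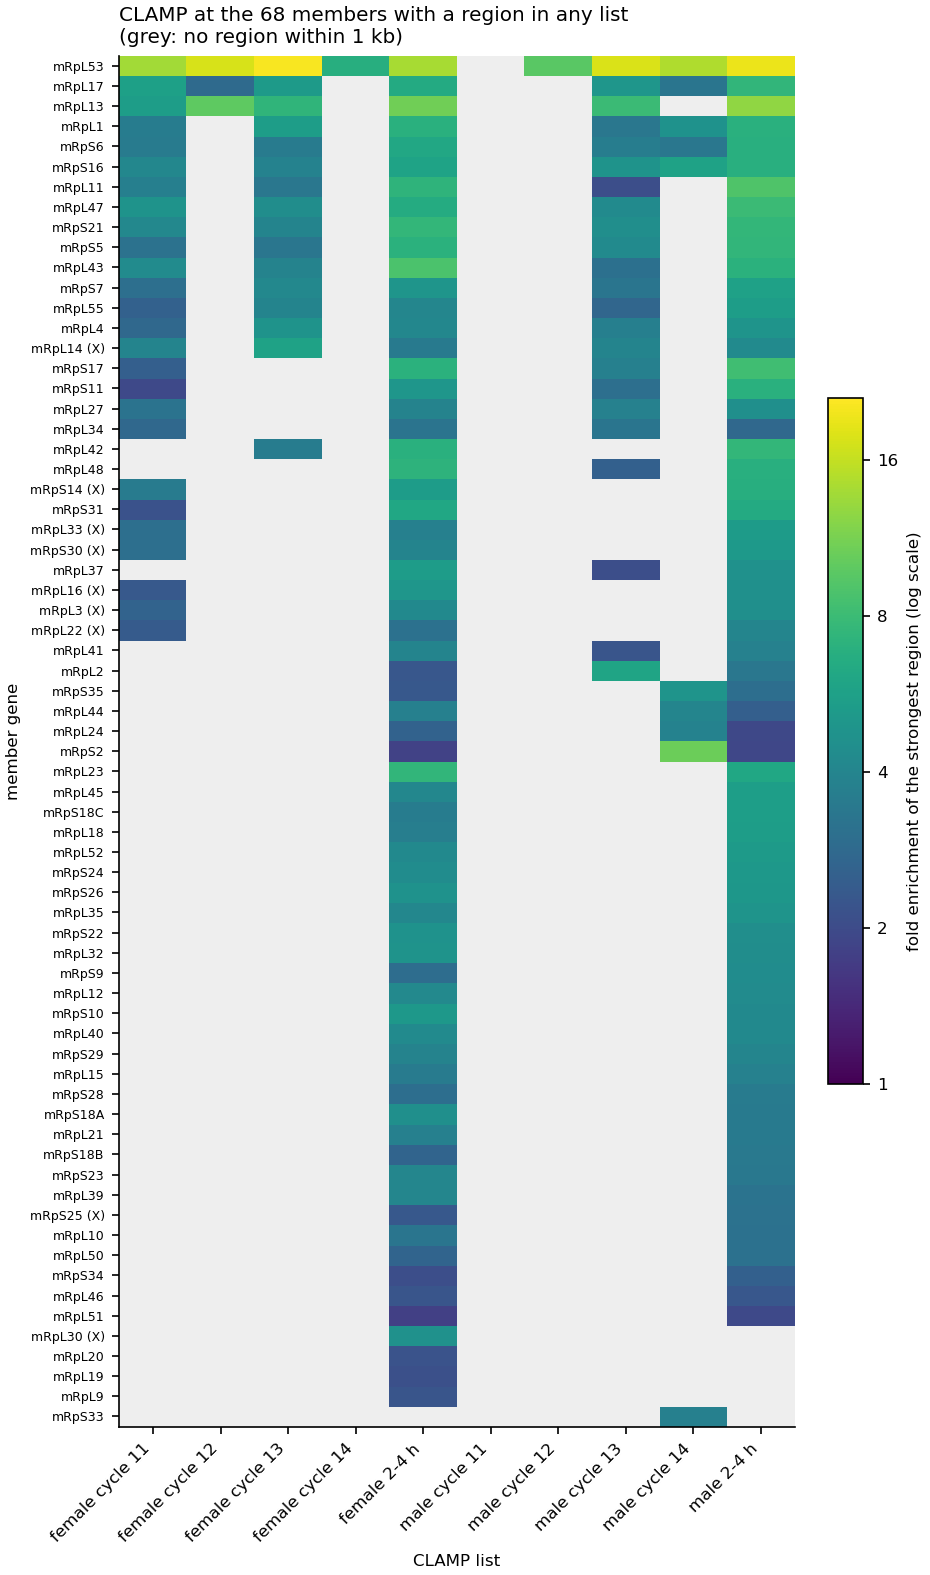
Fold enrichment of the strongest CLAMP region within 1 kb (colour, log scale) at the 68 members with a region in any list (rows, ordered by number of lists) in each of the 10 CLAMP lists (columns); grey marks no region. In 32 rows the 2-4 h lists alone are coloured, the row of mRpL53 is filled in every list but male cycle 11, and X-linked members are marked.

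X-linked members showed no excess of CLAMP over autosomal ones at 2-4 h. The female list held 9 of 11 on X (81.8%) and 58 of 62 on the autosomes (93.5%), against 66.8% and 59.6% of protein-coding genes there. In males the counts were 8 of 11 (72.7%) and 55 of 62 (88.7%), against 62.4% and 58.9%. At female cycle 11 the order was the other way, with 7 of 11 on X (63.6%) and 19 of 62 on the autosomes (30.6%). Protein-coding genes had 43.7% and 28.5% there, and X-linked genes of like length 21%. The 7 were mRpL14 (3.93), mRpS14 (3.56), mRpL33 (3.03), mRpS30 (3.03), mRpL3 (2.65), mRpL22 (2.41) and mRpL16 (2.34). At cycle 13 only mRpL14 among the X-linked members had a region, in both sexes, against 33.6% (female) and 34% (male) of X-linked genes and 13.3% in both sexes among those of like length. With 1 of 11 (9.09%), the members were near genes of like length.

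CLAMP summits at the members lay close to the ends of genes. In the female 2-4 h list 55 of 88 gene and region pairs (62.5%) had the summit within 250 bp of a body end, against 39.8% for all protein-coding genes and 54.4% for genes of like length. In the male 2-4 h list it was 50 of 87 (57.5%), against 39.3% and 53%. Genes of like length thus had most of the same gap to the background. The summit was inside the member's own body in 13 of 88 and 15 of 87 pairs. The gene table gives no strand, so which end is the start is not known here.

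Grouped by symbol alone, the 2 subunits were alike in the female 2-4 h list, with 42 of 47 mRpL genes (89.4%) and 25 of 26 mRpS genes (96.2%) occupied. In the male 2-4 h list they were 38 of 47 (80.9%) and 25 of 26 (96.2%). The small subunit gene that lacked CLAMP in both was mRpS33. The 5 members with no CLAMP in any list were all of the large subunit, to which 47 of the 73 belong by symbol.

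H4K16ac was found at nearly every member. Females had 72 of 73 occupied at cycle 11 and all 73 at cycles 12, 13, 14 and 2-4 h. The backgrounds were 53.4%, 50.2%, 56.2%, 58.3% and 63.8%, and 42.6%, 39.9%, 45.1%, 46.3% and 50.3% among genes of like length. The exception at female cycle 11 was mRpS5 (3L, 24537236 to 24543534), a long gene and the only member with no other protein-coding gene within 1 kb.

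In males 20 (27.4%), 68 (93.2%) and 65 (89%) members were occupied from cycle 11 to cycle 13, and all 73 at cycle 14 and 2-4 h. The backgrounds were 14%, 48.7%, 55%, 64% and 65.2%, and 10.8%, 38.7%, 42.8%, 51.3% and 52% among genes of like length. The shares of members were above both backgrounds in all 10 lists. Fold enrichment differed little from the background: at 2-4 h the median at the members was 2.32 in females and 2.08 in males, against 2.29 and 2.07 over all occupied genes. The members' median was below the background in 2 lists, male cycle 11 (3.66 against 3.69) and male cycle 13 (3.99 against 4.36), and above it in the other 8. Many early regions had a low −log10 q, where q is the peak caller's adjusted p-value. Fold enrichment of those regions alone is not given here. Its median over all regions of a list was 2.53 at female cycle 11, 3.64 at male cycle 11 and 3.96 at male cycle 13. It was 1.9 in females and 1.7 in males at 2-4 h, with no scaling between lists. Keeping regions with a −log10 q of at least 5 left 9 members at female cycle 11, against 7.72% of the background. It left 0 at male cycle 11 and 15 at male cycle 13, against 0.636% and 21.9%.

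Regions of H4K16ac ran over whole bodies of these short genes. In females 41, 55, 63, 56 and 51 members had at least 50% of the body covered, in order of stage, against 12.7%, 10.3%, 17.9%, 16.1% and 11.5% of protein-coding genes. Among genes of like length the shares were 19.2%, 20.7%, 30.9%, 26.5% and 26.4%. In males 2, 44, 38, 64 and 57 members passed, against 0.535%, 8.55%, 9.52%, 24.4% and 16%, and 0.989%, 18.2%, 16.3%, 34.1% and 30.6% among genes of like length. The 64 members of the male cycle 14 list were 87.7% of the 73, and in each list the members' share was above that of genes of like length. With regions of a −log10 q of at least 5 alone, 3 members passed at female cycle 11 (1.05% of protein-coding genes), 0 at male cycle 11 (0.0722%) and 10 at male cycle 13 (4.18%).

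**Figure D3:**
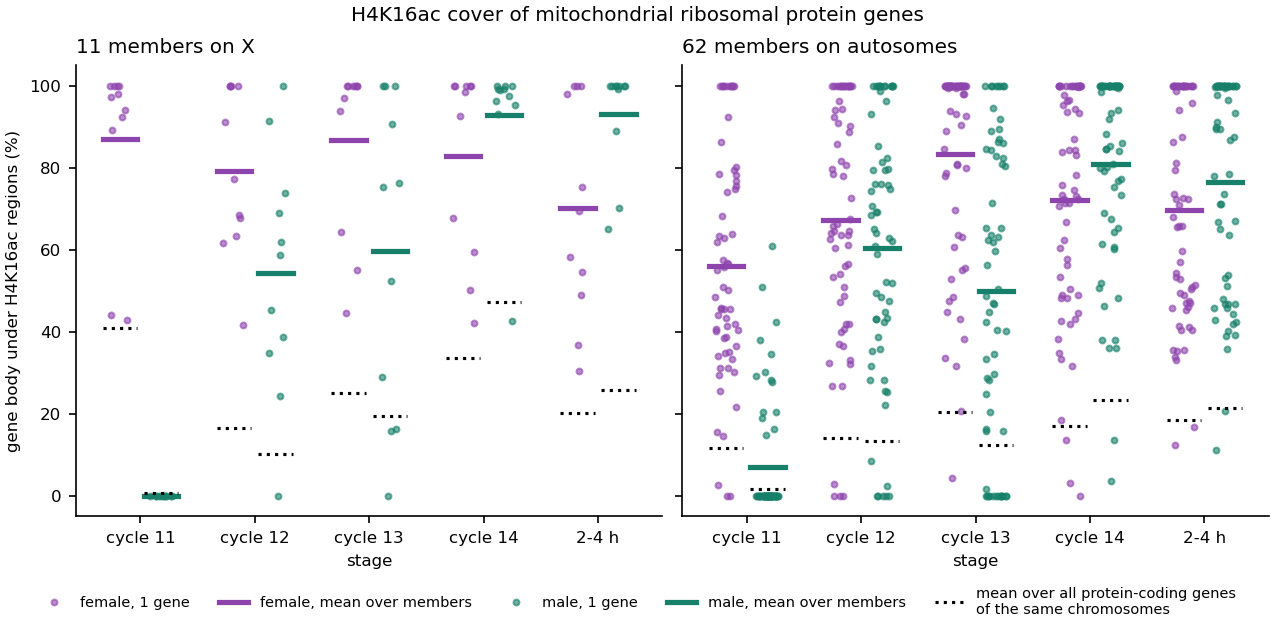
Percent of the gene body under H4K16ac regions (y axis) by stage (x axis) for 11 X-linked (left) and 62 autosomal members (right). Points are genes, solid lines their mean in females (purple) and males (green), and dotted lines the mean over all protein-coding genes of the same chromosomes; the X-linked means are 87.1% in females and 0% in males at cycle 11, and 70.2% and 93.1% at 2-4 h.

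The 5 members covered over the whole body in every list but male cycle 11 were mRpS14 on X, mRpL42 and mRpL18 on 2R, and mRpS18A and mRpS18C on 3R. In humans the counterparts of mRpS18A and mRpS18C are paralogues, and that of mRpS18A sits in the large subunit in spite of its symbol. The highest mean cover over the 10 lists belonged to mRpL41 (93.6%) and mRpL18 (92.9%), which kept 60.9% and 29.2% at male cycle 11. In all, 17 members had at least 50% cover in each of those 9 lists. The shares of protein-coding genes, and of genes of like length, that were so covered in all 9 lists are not given here. The counts of 5 and 17 members thus have no background. The lowest means belonged to the 2 longest genes, mRpS9 (4.49%) and mRpS5 (9.08%).

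The sexes differed in both directions over the stages. Mean cover over the 62 autosomal members was 56.1%, 67.2%, 83.4%, 72.1% and 69.7% in females, in order of stage. In males it was 6.99%, 60.5%, 50%, 81% and 76.7%. Males were thus lower by 49.1 percentage points at cycle 11 and by 33.4 at cycle 13, and higher by 8.92 at cycle 14 and by 6.92 at 2-4 h. The same differences over all autosomal protein-coding genes were -9.99, -7.95, 6.35 and 2.94 points, so the signs are those of the whole list. The male cycle 11 list held 1201 regions of a median 415 bp and the female one 6015 of 690 bp, and their part in the difference was not tested.

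Among X-linked members the mean cover in females was 87.1%, 79.2%, 86.8%, 82.8% and 70.2% in order of stage. In males it was 0%, 54.4%, 59.6%, 92.9% and 93.1%. Female cover was lowest at 2-4 h and male cover highest at cycle 14 and 2-4 h, so that the sign of the difference turned between cycles 13 and 14. Over all X-linked protein-coding genes the means were 41%, 16.5%, 25%, 33.6% and 20.2% in females and 0.762%, 10.2%, 19.4%, 47.2% and 25.8% in males. The difference at 2-4 h was 22.9 points at the members and 5.58 points over all X-linked genes.

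At 2-4 h cover was higher in the male list at 8 of the 11 X-linked members, higher in the female list at 0 and equal at 3. Over all X-linked protein-coding genes 38.4% were higher in the male list and 23% in the female list. On the autosomes 30 members (48.4%) were higher in the male list, 16 (25.8%) in the female list and 16 equal, against 34.6% and 19.3% of autosomal protein-coding genes. The largest gaps on X were those of mRpS30, with 30.4% in females and 100% in males, and of mRpL3, a protein near the catalytic centre of the ribosome, with 36.8% and 100%. mRpL22 had 58.2% and 88.9%, mRpL49 69.5% and 100%, mRpL16 75.2% and 100%, mRpL38 49.1% and 65.2%, and mRpL33 54.5% and 70.3%. mRpL14 differed by little, with 98% and 99.2%, and mRpL30, mRpS25 and mRpS14 were fully covered in both sexes.

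Fold enrichment of H4K16ac at 2-4 h was lower in the male list, but it has no scaling between lists. Its median over the X-linked members was 1.8 (1.6 to 2.09) in males and 2.33 (1.83 to 3.09) in females. Autosomal members had 2.13 in males and 2.32 in females, and the whole lists 1.7 and 1.9. The lower male values were thus not limited to X. Within the male list the X-linked members were therefore lower than the autosomal ones, as were all X-linked genes (1.78) against all autosomal genes (2.15).

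Over the 5 stages 66 members had a higher mean cover in females and 7 in males. Without cycle 11 the counts were 48 and 20, with 5 equal, so part of the female excess rests on that stage. Of all protein-coding genes, 43.9%, 26.8%, 37.4%, 9.62% and 19.9% had higher cover in the female list, in order of stage. Higher cover in the male list was found at 1.38%, 16.2%, 19.3%, 45% and 35.2% of them. Their share by mean over the stages is not given here. mRpL23, a protein at the exit of the peptide tunnel, had the widest gap, with 100% in all 5 female lists and with 0%, 0%, 0%, 100% and 100% in males. It was followed by mRpL55, which had 100% in every female list and 0%, 100%, 0%, 100% and 100% in males. mRpL54, mRpL10, mRpL50 and mRpS7 came next, with mean differences (male minus female) of -36.8, -35.1, -33.1 and -32.7 points.

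In the other direction mRpL32 led. Its cover was 0%, 0%, 63.1%, 44.5% and 50.9% in females and 0%, 25.5%, 0%, 94.2% and 100% in males. mRpL48 (10.7 points), mRpL15 (9.95), mRpS22 (3.45), mRpL47 (2.54) and mRpL40 (0.62) followed with smaller mean differences. None of these 6 is on X.

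Since H4K16ac was at almost every member, most members with CLAMP had it as well. This held for 67 of 67 members at female 2-4 h, against 90.4% of all genes with CLAMP there. It held for 25 of 26 at female cycle 11 (79.6%) and 19 of 23 at male cycle 13 (79.6%). H4K16ac regions overlapped 86 of the 88 CLAMP regions at female 2-4 h and 14 of the 29 at male cycle 13. The share over all CLAMP regions of these lists is not given here, so these overlaps have no background.

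MSL3, mapped in males only, was at no member at cycles 11 and 12. The lists then reached 0.217% and 0.144% of protein-coding genes, and 0.234% and 0.0781% of those of like length. At cycle 13 MSL3 was at 62 of 73 members (84.9%), 9 on X and 53 on the autosomes. The background of that list was 75.9%, with 71.9% on X and 76.7% on the autosome arms, and it was 63.5% among genes of like length. With a −log10 q of at least 5, only 3 members remained in that list, 2 of them on X, against 2.1% of protein-coding genes. The deposited list is filed under replicate 2, and replicate 1 was not analysed here.

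At cycle 14 MSL3 was at 10 of the 11 X-linked members (90.9%) and at 5 of the 62 autosomal ones (8.06%). The backgrounds were 50.6% on X and 9.56% on the autosome arms, 16.1% over both, and 35.4% for X-linked genes of like length. Mean body cover of the X-linked members was 63.4%, against 27.8% for all X-linked genes and 19.4% for those of like length. At least 50% was covered in 8 of the 11, against 29.4% of X-linked genes and 21.2% of those of like length. The autosomal members were thus near their background and the X-linked ones above theirs. Where at least 50% of a region had to lie in the window, 3 of the 11 were left, against 31.9% of X-linked genes. This setting depends on gene length. The median body was 857 bp in the X-linked members and 2520 bp in all X-linked genes, while the members' regions had a median width of 4774 bp. The share among genes of like length is not given here, so this setting cannot tell whether the excess holds. With a −log10 q of at least 5 there were 6 left, all on X, against 37.6% of X-linked genes.

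By fold enrichment the X-linked members at cycle 14 ran from mRpL14 (5.16) through mRpL49 (4.34), mRpL16 (4.09), mRpS14 (3.9), mRpL38 (2.9), mRpS30 (2.66), mRpL30 (2.51), mRpS25 (2.41) and mRpL22 (2.25) to mRpL3 (2.06). Their median of 2.78 was below that of all occupied X-linked genes (3.05). mRpL14 and mRpL16 are core proteins of the large subunit with bacterial counterparts, as is mRpS14 in the small subunit. The gene without MSL3 was mRpL33 (4321764 to 4322231), the shortest X-linked member at 468 bp. It was also the one with the least H4K16ac, at 42.7% of the body in males at cycle 14 and 0% at cycles 11, 12 and 13.

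The MSL3 regions at X-linked members were broad and covered neighbours as well. They had a median width of 4774 bp (1361 to 17611 bp), and 11 of the 12 lay over more than 1 gene. The region at mRpS14 was 17611 bp wide and overlapped 6 genes, and it covered the whole body of mRpS14. At mRpL16 the strongest region, 15331 bp wide, lay over trr and 5 other genes and ended before the body, while a weaker one (2.42) ran from mRpL16 into arm, the β-catenin gene. At mRpL14 the region was shared with Raf, and at mRpS30 it lay over no other gene.

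**Figure D4:**
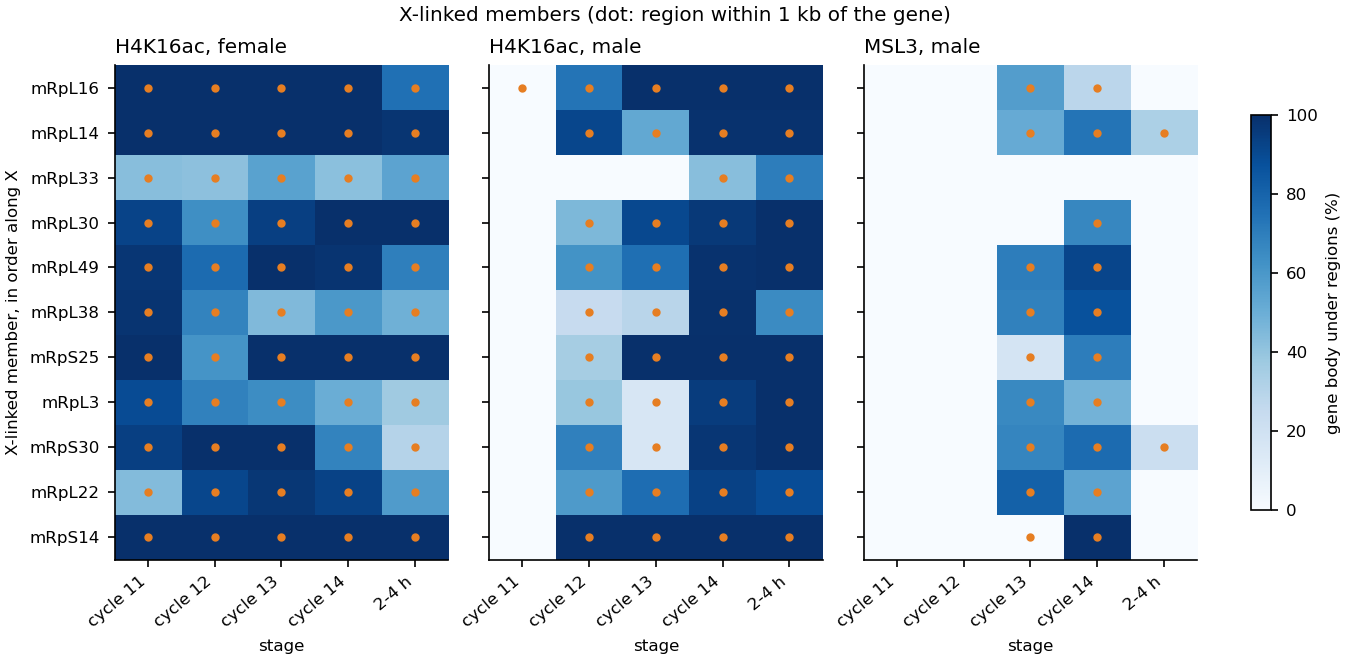
Percent of the body under regions (colour) at the 11 X-linked members (rows, in order along X) by stage (columns) for H4K16ac in females, H4K16ac in males and MSL3 in males; a dot marks a region within 1 kb. Male H4K16ac is absent from every body at cycle 11, its lowest values at cycle 14 and 2-4 h are those of mRpL33 (42.7%) and mRpL38 (65.2%), and MSL3 has a dot in every row but that of mRpL33 at cycle 14.

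Autosomal members with MSL3 at cycle 14 had low values. mRpS33 had 2.41, mRpS23 2.4, mRpS11 2.12, mRpL48 2.09 and mRpL1 1.93. The regions of mRpS33 and mRpS23 did not reach the body and lay over ema and CenG1A. Every X-linked MSL3 region at cycle 14 (12 of 12) overlapped a male H4K16ac region of the same stage and 0 overlapped a CLAMP region, in the CLAMP list that stands apart. Of all X-linked genes with MSL3 at cycle 14, 99.9% were also occupied by H4K16ac and 34.8% by CLAMP, against 10 and 0 of the 10 members. Among X-linked genes of like length, with or without MSL3, 14.6% had CLAMP in the same CLAMP list.

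At 2-4 h the MSL3 list reached 4 members, against a background of 4.54% (18% of X-linked and 2% of autosomal genes). They were mRpL14 (3.41) and mRpS30 (2.98) on X, and mRpS23 (6.06) and mRpS21 (3.56) on the autosomes. The last pair had regions over CenG1A and Droj2 and not over their own bodies. mRpL14 and mRpS30 were thus the X-linked members with MSL3 at cycles 13, 14 and 2-4 h, and mRpS23 was the only autosomal one.

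Other gene groups put the CLAMP values in place. Of 84 cytoplasmic ribosomal protein genes 73.8% had CLAMP at female cycle 11, 69% at male cycle 13, and 97.6% in each of the 2-4 h lists. The mitochondrial ribosomal genes had 35.6%, 31.5%, 91.8% and 86.3% there. Nuclear genes of complex I and ATP synthase, 53 in number, had 28.3%, 32.1%, 81.1% and 79.2%. The 35 genes of mitochondrial translation factors, tRNA synthetases and mitochondrial DNA expression had 20%, 20%, 77.1% and 65.7%. The members were close to the complex I and ATP synthase genes at the cycles and well below the cytoplasmic ribosomal genes, while at 2-4 h the gap to the latter was small. None of these differences was tested.

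For H4K16ac the members had the widest body cover of the 4 groups at male cycle 14, with a mean of 82.8%. Cytoplasmic ribosomal genes had 71.4%, complex I and ATP synthase genes 57.2%, and mitochondrial translation and expression genes 39.9%. Median gene lengths were 909 bp in the members and 1325.5, 1094 and 2161 bp in these groups. MSL3 at cycle 14 reached 13.1%, 26.4% and 17.1% of these groups, with 13, 10 and 1 of their genes on X.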

How the data were processed

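ChIP-seq region lists of CLAMP (narrow format) and of H4K16ac and MSL3 (broad format) were used as deposited. The submitters' processing notes name Bowtie2, Picard, SAMtools 1.9 and MACS2 2.1.1, with dm6 as the build. The control library, and whether replicates were pooled, are not given in the sources used here. The fold (ratio) of each region, its −log10 p and −log10 q, its score and, in narrow lists, its summit offset are values of the authors' peak caller, as deposited. The labels' protocols name an antibody source for CLAMP only. For 9 groups 2 replicates are labelled and 1 list was used; the male cycle 12 and 13 MSL3 lists and the male cycle 13 CLAMP list are filed under replicate 2. Samples of IgG and input, and replicates with no list, were not analysed here.

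Regions with the same interval were merged, keeping the highest fold and −log10 q. Coordinates are 1-based. Gene bodies came from the RefSeq table of Release 6, which gives no strand. Occupancy and cover were computed in Python 3.11.15 with pandas 2.3.3, NumPy 2.4.6, SciPy 1.17.1 and Matplotlib 3.10.9, and were checked on simulated regions and against a count by base. With 1 list per group no test was made.

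Members named in the text are those on X, up to 8 autosomal ones with CLAMP in most lists, up to 6 with MSL3 in most lists, 6 each by mean H4K16ac cover, by CLAMP in 1 sex and by cover difference in each direction, and those in no CLAMP list, 41 in all. Further members (mRpL9, mRpL19, mRpL20, mRpS5, mRpS9, mRpS21) were named after their values were seen. The members, the lists and the rule were chosen with earlier results of these data known. mEFG2, mtRF1, Slirp1 and Slirp2 were not found in the gene table under those symbols. No promoter or protein sequence was used here.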

Additional observations from a re-analysis of the deposited data

Results flagged for a closer look

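Differences between the sexes at the same stage stood out in 6 comparisons, each of 1 male and 1 female list, and none was tested. The number of members with CLAMP differed by -26 (male minus female) at cycle 11, where the male list had 133 regions and the female list 5462. It differed by 9 at cycle 14, where the lists had 8393 and 529. Mean H4K16ac body cover of X-linked members differed by -87.1 percentage points at cycle 11 and by 22.9 at 2-4 h. For autosomal members it differed by -49.1 points at cycle 11 and by 8.92 at cycle 14. The same differences over all protein-coding genes of those chromosomes had the same sign, at -40.3, 5.58, -9.99 and 6.35 points.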

How the results depend on the processing

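No paired analysis was possible because each group has 1 list. The promoter as a window was planned and not run, since the gene table has no strand. Depth is unknown, so a member with no region may lie below what a list could detect. All values here are numbers of members, and the cause of each change was not tested beyond what the setting removes. With no flank, CLAMP fell to 11 at female cycle 11, 8 at female and 12 at male cycle 13 and 2 at male cycle 14, and MSL3 at 2-4 h to 2 (3.25% of protein-coding genes). With a flank of 2 kb CLAMP rose to 5 at female cycle 12 and 19 at male cycle 14, and MSL3 at cycle 11 to 1, against 12.5%, 38.1% and 0.311%. In the 500 regions of highest fold, CLAMP was at 1 member at female cycle 11, 13 and 2-4 h, 2 at male cycles 13 and 14 and 1 at male 2-4 h, below the background of 3.29% to 3.93%. H4K16ac was there at 8, 11, 14, 13 and 3 members in females and 7, 12, 4, 9 and 4 in males, by stage, below the background at male cycle 13 and at 2-4 h in both sexes (6.69%, 6.78% and 7.06%) and above it in the other 7 lists (6.44% to 9.12%). MSL3 at cycle 13 was there at 5 (4 on X), against 4.93% (12.4% on X). With a −log10 q of at least 5, H4K16ac was at 9 and 47 members at female cycles 11 and 12 and at 0, 43 and 15 at male cycles 11, 12 and 13, against 30% at female and 27.6% at male cycle 12. It covered at least 50% of the body in 3 and 36 members at female cycles 11 and 12 (6.45% of genes at cycle 12), and in 0 and 10 at male cycles 11 and 13. MSL3 was then at 3 (2 on X), 6 (6 on X) and 2 (1 on X) at cycles 13, 14 and 2-4 h. With at least 50% of a region inside the window, MSL3 was at 7 at cycle 14 (3 on X) and at 5 on X at cycle 13, below the backgrounds of 11.8%, 31.9% and 64.5%. Those backgrounds are of genes of all lengths, with longer bodies than the members and so wider windows. Cover of at least 80% was found in 22, 30, 36 and 29 members at female cycles 11, 12, 14 and 2-4 h and in 0, 20 and 25 at male cycles 11, 12 and 13, against 6.52%, 4.72%, 8.3% and 6.35%, and 0.217%, 3.81% and 3.68%. Adding tko and bonsai, which encode mitochondrial ribosomal proteins under other symbols, kept the 30 counts over all members, or over X-linked ones for MSL3, and 18 of the other 20 within 1.5 times; the X-linked members with CLAMP at cycle 13 went from 1 to 2 in each sex. The backgrounds of like length, and of that length with another gene within 1 kb, were chosen after seeing the data; with the latter the CLAMP shares at 2-4 h were 47.5% in females and 46.4% in males.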

Other observations

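The genes tko and bonsai encode proteins of the small subunit under names of their own and were not among the 73. tko, named for a mutant that is paralysed by mechanical shock, lies on X from 2442313 to 2443976. CLAMP was near it at female cycles 11, 13 and 2-4 h (fold enrichment 4.21, 3.53 and 4.36) and at male cycle 13 and 2-4 h (3.25 and 5.32). Its H4K16ac cover was 93.9%, 87.7%, 8.83%, 21.9% and 23.9% in females by stage and 0%, 69.9%, 0%, 32.5% and 0% in males. At 2-4 h it therefore differs from the 11 X-linked members, all of which had at least 65.2% in males. MSL3 was within 1 kb at cycle 14 (4.83) and 2-4 h (2.95) and covered 0% of the body.

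bonsai, on 2R from 22637770 to 22638868, had CLAMP at 2-4 h alone, at 4.4 in females and 5.6 in males. H4K16ac was near it in all 10 lists and covered its whole body in males at cycle 14 and 2-4 h. MSL3 was there at cycle 13 alone (2.85).

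The RNAs of the same ribosome are encoded by the mitochondrial genome, on which histones are not found. Regions were listed over its rRNA genes lrRNA and srRNA for all 3 targets, with CLAMP at 3.1 and 2.78 in females at 2-4 h, H4K16ac at 2.12 and 2.52 at female cycle 11 and MSL3 at 3.09 at cycle 11. At female 2-4 h the H4K16ac values there were 1.87 for both genes, against a median of 2.32 at the members.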
